A study of Homo sapiens with 3 samples.

Results

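The genes described here were 10 regulators of the cell division cycle, 7 cyclins (CCND1, CCND3, CCNE1, CCNE2, CCNA2, CCNB1 and CCNB2), the kinase CDK1, and 2 inhibitors of cyclin-dependent kinases (CDKN1B and CDKN2A). They were chosen by name, with earlier results of these data known, out of 33538 genes measured. The study irradiated HCT116, a human colorectal cancer line labelled p53plus, with 8 Gy and followed giant radiation-tolerant persister (RTP) cells and the progeny that bud from them. Of its experiments, 2 single-cell libraries from 10x Genomics droplets (3′ chemistry) were used. Mix1 pooled irradiated giant cells that were isolated on day 5 or on day 8 and cultured further until day 10 or day 11. Mix2 pooled 10000 irradiated cells (IR) prepared in the same way, 1000 repopulated cells (R) that had regrown after irradiation and 1000 non-irradiated cells (NC, 0 Gy), as loaded.

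The populations of Mix2 were read from antibody hashtags, and the hashtag of a population had to make up at least 80% of the 3 tags in a cell. Strong IR cells held at least 3160 counts of tag8 and weak IR cells 500 to 3159. R cells held at least 104 counts of tag7 and NC cells at least 374 counts of tag6. Strong IR, weak IR and Mix1 may each hold persister cells at several stages of budding together with budded progeny, whose shares are not given by the labels. Every population was 1 sample of the same p53plus line, so no difference has a replicate check, no test was made, and intervals at 95% (in brackets) cover counting error only. Mix1 is another library than Mix2, so wherever Mix1 is set beside NC, effects of the library and of the preparation cannot be told apart.

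Cyclins are activating subunits of cyclin-dependent kinases and are made and destroyed in turn as a cell divides. D-type cyclins, whose transcription answers to growth signals, work with CDK4 and CDK6 in G1, E-type cyclins work with CDK2 at the entry into S phase, CCNA2 acts in S and G2 phases, and B-type cyclins drive mitosis together with CDK1. After DNA damage, p53 induces the inhibitor CDKN1A (p21), and genes of the G2 and M phases are repressed through the DREAM complex, which binds cell cycle homology regions and E2F sites in their promoters. CDKN1B (p27) blocks CDK2 complexes in resting cells. CDKN2A encodes p16INK4a, which blocks CDK4 and CDK6, and p14ARF, which stabilizes p53.

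Promoter windows of RefSeq (GRCh38.p14), from 250 bases before to 50 bases after a start, were matched for 8 of the 10 genes, with 12 windows in all. The windows of the G2/M cyclins and CDK1, whose levels went together in the data below, are shown with that of CCNE1, whose level did not go with them. Capitals mark the cell cycle homology region (TTTGAA or TTTAAA), the CCAAT box and 3 forms of the E2F site (TTTCGCGC, TTTGGCGC, TTTCCCGC), on either strand, so that CCAAT can read ATTGG and TTTGAA can read TTCAAA. The palindrome TTTAAA reads the same on both strands, and the motifs shown do not overlap one another.
CCNB1 (chr5:69166900-69167199, plus strand): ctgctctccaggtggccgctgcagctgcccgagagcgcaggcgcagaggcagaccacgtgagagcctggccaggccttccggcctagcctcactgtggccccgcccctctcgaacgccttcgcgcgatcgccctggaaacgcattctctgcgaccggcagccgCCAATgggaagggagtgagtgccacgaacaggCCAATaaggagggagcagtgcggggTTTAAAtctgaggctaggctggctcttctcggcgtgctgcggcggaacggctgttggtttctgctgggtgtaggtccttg
CCNB2 (chr15:59104896-59105195, plus strand): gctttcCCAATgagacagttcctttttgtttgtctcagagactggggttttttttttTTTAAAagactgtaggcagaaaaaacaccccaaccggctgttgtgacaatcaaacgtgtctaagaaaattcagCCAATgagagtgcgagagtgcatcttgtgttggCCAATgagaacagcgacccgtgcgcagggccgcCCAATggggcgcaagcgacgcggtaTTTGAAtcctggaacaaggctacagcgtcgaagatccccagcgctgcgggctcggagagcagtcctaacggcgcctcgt
CDK1 (chr10:60778228-60778527, plus strand): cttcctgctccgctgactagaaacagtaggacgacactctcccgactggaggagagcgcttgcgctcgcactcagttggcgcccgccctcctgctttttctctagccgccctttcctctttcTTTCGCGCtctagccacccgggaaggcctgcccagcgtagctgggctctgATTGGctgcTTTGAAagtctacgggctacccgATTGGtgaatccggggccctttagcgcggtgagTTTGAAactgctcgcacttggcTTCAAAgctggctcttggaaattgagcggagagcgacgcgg
CCNA2 (chr4:121823834-121824133, minus strand): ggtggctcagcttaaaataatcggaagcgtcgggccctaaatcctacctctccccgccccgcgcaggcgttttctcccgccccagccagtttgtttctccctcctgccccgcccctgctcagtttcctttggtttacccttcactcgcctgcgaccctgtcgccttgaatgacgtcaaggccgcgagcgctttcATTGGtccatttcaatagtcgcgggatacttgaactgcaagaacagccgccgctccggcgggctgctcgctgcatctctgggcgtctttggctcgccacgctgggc
CCNE1 (chr19:29811741-29812040, plus strand): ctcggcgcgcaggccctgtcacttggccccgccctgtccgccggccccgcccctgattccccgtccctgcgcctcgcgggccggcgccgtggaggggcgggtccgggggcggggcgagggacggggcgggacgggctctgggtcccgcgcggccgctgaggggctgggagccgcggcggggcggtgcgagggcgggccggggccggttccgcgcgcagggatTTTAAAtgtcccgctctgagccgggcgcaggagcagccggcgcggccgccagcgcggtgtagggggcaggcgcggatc
The CCNB2 window held 4 CCAAT boxes, of which those at -120, -87 and -54 were evenly spaced, a TTTAAA at -193 and a TTTGAA at -29, counted from the start. The CCNB1 window held CCAAT boxes at -87 and -55 and a TTTAAA at -30. The CDK1 window shown held 2 CCAAT boxes, 3 cell cycle homology regions and the E2F form TTTCGCGC at -128. The other CDK1 window (chr10:60778081-60778380) overlaps it. That window held 1 CCAAT box, 2 cell cycle homology regions and the same E2F site. The CCNA2 window held a CCAAT box at -56 and none of the other letters searched, and the CCNE1 window held only a TTTAAA at -28. Other forms of the cell cycle homology region were not searched, so a window without a match may still hold one. CDKN1B, which is not shown, held 3 CCAAT boxes and 1 cell cycle homology region, 2 of the 3 CCND3 windows held a CCAAT box each, and neither CDKN2A window held any motif searched. Of 35116 promoter windows of the same length, 34.6% held a CCAAT box, 24.0% a cell cycle homology region, 9.27% both and 2.74% an E2F form, so matches of the first 2 kinds are frequent and only describe the letters.

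The genes lie on different chromosomes of GRCh38 (GENCODE 44). CCND1 (ENSG00000110092) spans bases 69641156 to 69654474 of chromosome 11, CCNB1 (ENSG00000134057) bases 69167135 to 69178245 of chromosome 5, and CDK1 (ENSG00000170312) bases 60778331 to 60794852 of chromosome 10, all on the plus strand. CCNE1 (ENSG00000105173, chromosome 19, 29811991 to 29824312), CCNB2 (ENSG00000157456, chromosome 15, 59105126 to 59125045) and CDKN1B (ENSG00000111276, chromosome 12, 12685498 to 12722369) are on the plus strand too. CCND3 (ENSG00000112576, chromosome 6, 41934934 to 42050357), CCNE2 (ENSG00000175305, chromosome 8, 94879770 to 94896678), CCNA2 (ENSG00000145386, chromosome 4, 121816444 to 121823883) and CDKN2A (ENSG00000147889, chromosome 9, 21967752 to 21995301) are on the minus strand.

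After removal of cells with fewer than 200 detected genes or at least 10% mitochondrial UMIs (unique molecular identifiers, each standing for 1 captured RNA molecule), 2216 strong IR, 6322 weak IR, 15630 Mix1, 633 R and 810 NC cells remained. Gene UMIs numbered 27127545 in strong IR, 46991674 in weak IR, 150680612 in Mix1, 4731705 in R and 6104377 in NC, and 1671 kept cells of Mix2 fell in no population. Median UMIs per cell were 11861.5 in strong IR, 7216 in weak IR, 8995.5 in Mix1, 6933 in R and 7160.5 in NC. All 5 epithelial markers (EPCAM, KRT8, KRT18, KRT19 and CDH1) stood above 10 CPM in every population, and none of 13 fibroblast, immune, endothelial and erythroid markers reached 10 CPM in any. The 80% limit kept out cells in which the other hashtags made up over 20% of the tags. A strong IR cell joined to an NC or R cell could still pass it, as median counts of the own tag were 7438.5 in strong IR, 1345 in R and 1626 in NC. Doublets of cells under the same hashtag, and any doublets of Mix1, could not be removed. The libraries shared 59 barcodes, of 17019 in Mix1 and 13888 in Mix2. As loaded, Mix1 had 10000 cells and Mix2 12000, fewer than their barcodes. Some barcodes, in Mix1 above all, may therefore not be separate loaded cells, which limits the levels and shares given for Mix1. Levels are counts per 1000000 gene UMIs of a population (CPM). Because 3′ capture differs from gene to gene, they are compared between populations and not between genes.

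Among the D-type cyclins, CCND1 was higher in strong IR and Mix1, and only slightly so in weak IR, whereas CCND3 was not. CCND1 stood at 753 CPM (743 to 764) in strong IR, 468 CPM (462 to 474) in weak IR, 603 CPM in Mix1 and 405 CPM (387 to 423) in R, against 396 CPM (381 to 412) in NC. Strong IR, Mix1 and weak IR were thus set apart from NC beyond counting error, in that order of level, while the intervals of R and NC overlapped. For weak IR this depended on the tag limit. With the own tag at 95% or more of the tags, its log2 ratio to NC was 0.14 (-0.006 to 0.29), an interval that spanned 0. CCND1 was 1.90-fold higher (1.82 to 1.98) in strong IR than in NC, 1.52-fold higher (1.46 to 1.58) in Mix1 and 1.18 times the NC level (1.13 to 1.23) in weak IR. CCND3, the other D-type cyclin measured here, stood at 19.9 CPM in strong IR, 22.7 CPM in weak IR, 16.5 CPM in Mix1 and 17.5 CPM in R, against 22.4 CPM in NC. Its ratio to NC was 0.887 (0.734 to 1.08) in strong IR and 0.736 (0.620 to 0.881) in Mix1.

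The E-type cyclins parted from each other. CCNE1 stood at 31.5 CPM in strong IR, 35.7 CPM in weak IR, 27.8 CPM in Mix1 and 26.4 CPM in R, against 36.2 CPM in NC, with ratios to NC from 0.730 (0.581 to 0.913, R) to 0.986 (0.856 to 1.14, weak IR). CCNE2 stood at 11.9 CPM in strong IR, 26.8 CPM in weak IR, 20.7 CPM in Mix1 and 31.5 CPM in R, against 32.8 CPM in NC. It was lower in strong IR, at 0.362 of the NC level (0.303 to 0.434), which was the lowest ratio of the 10 genes in that comparison. Per UMI of CCNE2, strong IR held 2.66 UMIs of CCNE1 (2.33 to 3.03), weak IR 1.33, Mix1 1.34 and R 0.839, against 1.10 (0.908 to 1.34) in NC. Both genes serve the same kinase, and their proportion in strong IR lay outside the intervals of the other populations.

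The G2/M cyclins and CDK1 were lower in strong IR and Mix1 by similar factors. CCNB1, which activates CDK1 for mitosis, stood at 109.6 CPM in strong IR (106 to 114), 252 CPM in weak IR, 143 CPM in Mix1 and 325 CPM in R (309 to 341), against 271 CPM in NC (258 to 285). CCNB2, its close relative, stood at 28.3 CPM in strong IR, 64.5 CPM in weak IR, 33.1 CPM in Mix1 and 74.0 CPM in R, against 75.8 CPM in NC. CCNA2 stood at 29.8 CPM in strong IR, 62.4 CPM in weak IR, 38.3 CPM in Mix1 and 67.8 CPM in R, against 75.0 CPM in NC. The order of populations was the same for all 3, with strong IR lowest, then Mix1, weak IR, and R and NC, and the intervals of weak IR and R overlapped for CCNA2 and CCNB2. For CCNB1, R stood above NC beyond counting error here, but below it with the own tag at 95% or more of the tags, where 44 R and 88 NC cells were left (log2 ratio -0.42, -0.74 to -0.12). CDK1, the kinase itself, stood at 108 CPM in strong IR, 226 CPM in weak IR, 116 CPM in Mix1 and 242 CPM in R, against 243 CPM in NC. In strong IR the ratios to NC were 0.397 (0.354 to 0.446) for CCNA2, 0.404 (0.381 to 0.430) for CCNB1, 0.374 (0.333 to 0.420) for CCNB2 and 0.443 (0.416 to 0.472) for CDK1. In Mix1 they were 0.510 for CCNA2, 0.527 for CCNB1, 0.436 for CCNB2 and 0.480 for CDK1. CCNB1 and CCNB2 stood in proportions whose intervals overlapped in strong IR and NC, at 3.87 UMIs of CCNB1 per UMI of CCNB2 (3.57 to 4.19) in strong IR and 3.57 (3.22 to 3.97) in NC. In Mix1 the proportion was 4.32 (4.19 to 4.46), above the interval of NC.

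Of the inhibitors, CDKN1B was lower in strong IR, and CDKN2A differed between the irradiated preparations. CDKN1B stood at 8.85 CPM in strong IR, 13.7 CPM in weak IR, 12.6 CPM in Mix1 and 16.5 CPM in R, against 15.1 CPM in NC, with a ratio of 0.587 (0.460 to 0.755) for strong IR. Only 240 UMIs in strong IR and 92 in NC carry that ratio, so its interval is wide. CDKN2A stood at 34.7 CPM in strong IR (32.5 to 37.0), 46.9 CPM in weak IR, 72.7 CPM in Mix1 (71.4 to 74.1) and 46.9 CPM in R, against 47.7 CPM in NC (42.4 to 53.5). Its ratio to NC was 0.728 (0.637 to 0.833) in strong IR, short of 1.5-fold except in cells thinned to 5000 UMIs (log2 ratio -0.59, -0.87 to -0.31), and it was 1.53-fold higher (1.36 to 1.72) in Mix1, so that strong IR and Mix1 lay on opposite sides of NC, while weak IR stood at 0.983 of the NC level (0.869 to 1.11). The transcripts of p16INK4a and p14ARF share their last exons, and 3′ counts cannot separate them.

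**Figure D1:**
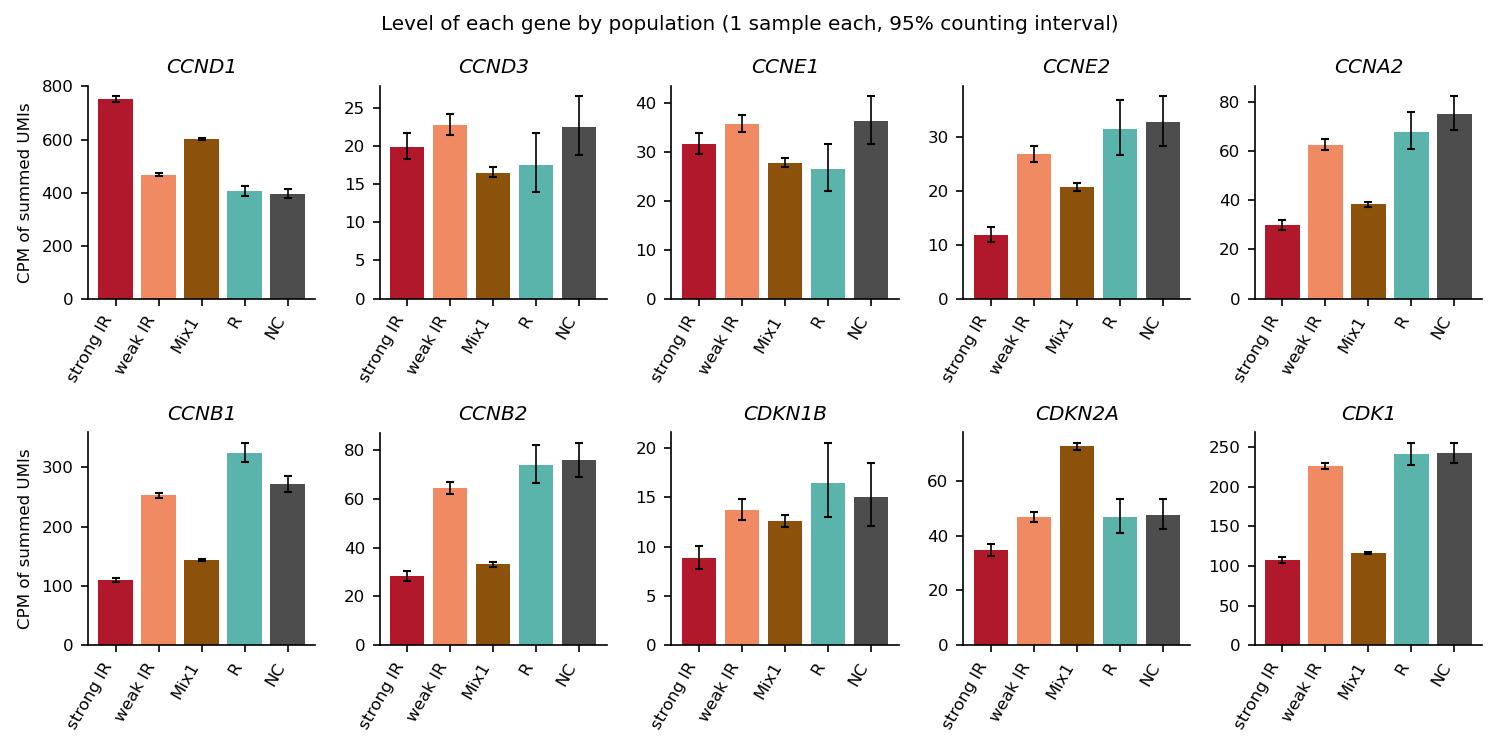
Level of the 10 genes (y axis, CPM of summed UMIs, from 0, with its own scale per gene) in strong IR, weak IR, Mix1, R and NC cells; bars are 1 sample each and error bars are exact Poisson 95% intervals. CCND1 is tallest in strong IR (753 CPM) and shortest in NC (396 CPM), CCNB1 (109.6 CPM) and CDK1 (108 CPM) are shortest in strong IR, and CDKN2A is tallest in Mix1 (72.7 CPM).

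A gene was called higher or lower when its ratio passed 1.5-fold with an interval excluding 1 and it reached 10 CPM in either population, as all 10 genes did in each comparison. In strong IR over NC, 1 of the 10 genes was called higher (CCND1), where 9.92% of 7722 genes at this level were called higher, and 6 were called lower (CCNE2, CCNA2, CCNB1, CCNB2, CDKN1B and CDK1), where 15.4% of all genes were. The median log2 ratio of the 10 genes was -0.97, against -0.11 over all genes. As the 10 genes were chosen with earlier results of these data known, these counts and medians only describe them. Because the median over all genes at this level lay 0.11 below 0 under CPM, the ratios of strong IR are to be read beside that shift of the median. Under TMM scaling, where the median of all genes was -0.01, the 7 calls were the same. CCNE2 lost its call with the own tag at 95% or more of the tags (log2 ratio -0.65, -1.37 to 0.18), where 88 NC cells were left, and the other 6 calls held under all 13 alternatives run at 1.5-fold. In Mix1 over NC, CCND1 and CDKN2A were called higher, where 6.97% of 7662 genes were, and CCNE2, CCNA2, CCNB1, CCNB2 and CDK1 were called lower, where 10.0% were. CCND1 and CDKN2A lay just past the 1.5-fold limit in Mix1, and each lost its call under 4 of 10 alternatives. CCNE2 lost its call in Mix1 under 3, and with the stricter tag limit its log2 ratio stood at 0.17 (-0.53 to 0.98).

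**Figure D2:**
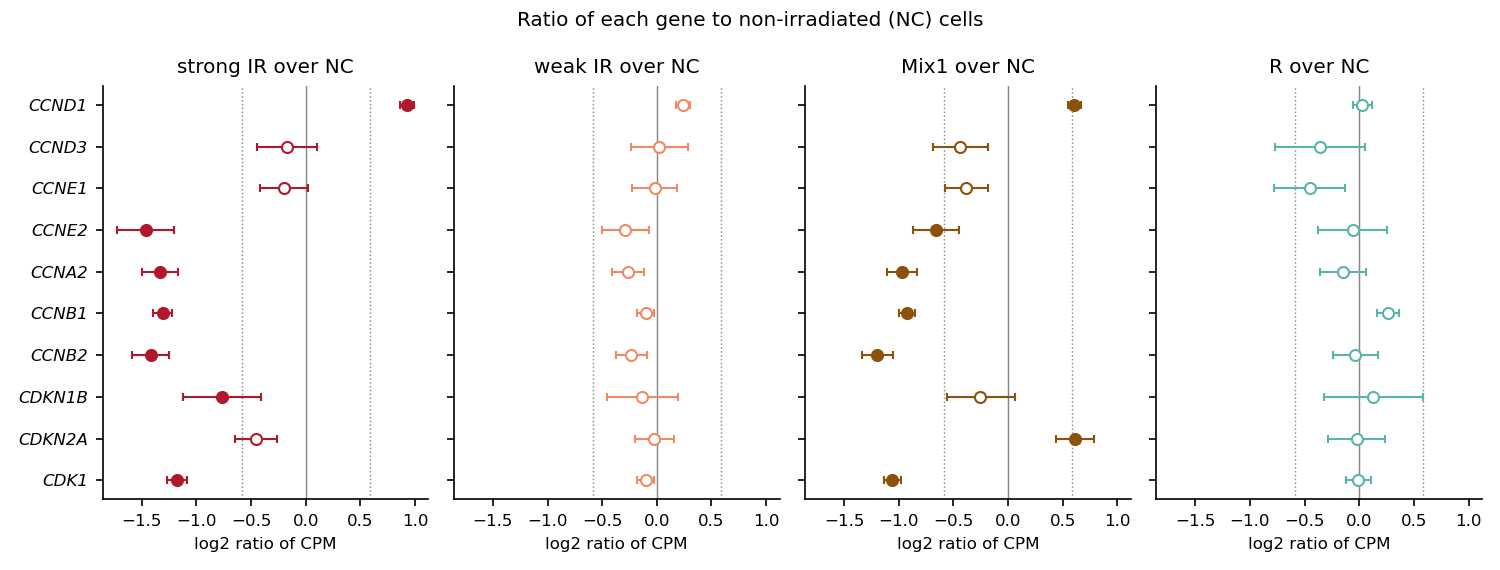
Ratio of each gene to NC on a log2 scale (x axis) in strong IR, weak IR, Mix1 and R cells; points are 1 sample over 1 sample, bars exact 95% counting intervals, filled points are past 1.5-fold (dotted lines) and open points are not. Filled points are 7 in strong IR and 7 in Mix1, of which CCND1 in both and CDKN2A in Mix1 lie to the right, and no point is filled in weak IR or R.

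In weak IR and in R no gene of the 10 was called against NC in either direction. For weak IR over NC, 0.709% of 7478 genes were called higher and 0.481% lower, and for R over NC 1.42% of 7533 were called higher and 1.77% lower, so few genes of any kind passed the limit. Counting error still set some of the 10 apart without reaching 1.5-fold. In weak IR, CCNE2 stood at 0.818 (0.704 to 0.954), CCNA2 at 0.832 (0.754 to 0.920) and CCNB2 at 0.850 (0.771 to 0.939) of the NC level, on the same side as in strong IR. In R, CCNB1 stood at 1.20 times the NC level (1.12 to 1.29), on the other side of NC with the stricter tag limit as given above, and CCNE1 at 0.730 of it, while CDK1 stood at 0.995 (0.920 to 1.08). Strong IR over weak IR, both under tag8, gave 1 gene higher (CCND1, 1.61-fold, 1.58 to 1.64), where 7.23% of 7625 genes were, and 6 lower (CCNE2, CCNA2, CCNB1, CCNB2, CDKN1B and CDK1), where 10.6% were. CCND1 lost that call with equal weight per cell (log2 ratio 0.52), and CDKN1B lost it under TMM (-0.56), without mitochondrial and ribosomal protein genes (-0.58) and with weak IR from 1000 tag8 counts (-0.55).

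G1 cyclins were set against G2/M cyclins within each population, a ratio from which the library total drops out. UMIs of CCND1, CCND3, CCNE1 and CCNE2 together outnumbered those of CCNA2, CCNB1 and CCNB2 by 4.87 (4.72 to 5.03) in strong IR, 1.46 (1.43 to 1.49) in weak IR, 3.11 (3.08 to 3.15) in Mix1 and 1.03 (0.970 to 1.09) in R, against 1.16 (1.10 to 1.22) in NC. On the log2 scale the ratio stood 2.07 (1.99 to 2.16) above NC in strong IR, 0.34 (0.25 to 0.42) above it in weak IR and 1.43 (1.35 to 1.51) above it in Mix1, while R differed from NC by -0.17 (-0.28 to -0.05). That of R was 0.41 (0.09 to 0.73) with the own tag at 95% or more, and its interval spanned 0 in cells with at least 2000 genes and under 5% mitochondrial UMIs (-0.21, -0.63 to 0.20). CCND1 gave 92.2% of the G1 sum in strong IR and 81.3% in NC, so the ratio is mainly one of CCND1 to the G2/M cyclins. Without CCND1, the other G1 cyclins stood at 0.377 UMIs per G2/M UMI (0.357 to 0.399) in strong IR, 0.225 in weak IR, 0.303 in Mix1 and 0.162 in R, against 0.217 (0.197 to 0.237) in NC. The log2 difference from NC was then 0.80 (0.65 to 0.96) in strong IR, 0.05 (-0.09 to 0.19) in weak IR, 0.49 (0.35 to 0.62) in Mix1 and -0.42 (-0.63 to -0.21) in R.

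To describe positive cells and UMIs per positive cell at like depth, cells were thinned to 5000 UMIs. This left out 150 strong IR, 1099 weak IR, 4963 Mix1, 96 R and 111 NC cells that were shallower. At this depth CCNB1 was detected in 32.0% of strong IR cells (30.0 to 34.1), 60.9% of weak IR, 41.5% of Mix1 and 66.3% of R cells, against 64.1% of NC cells (60.4 to 67.7). Unthinned, it was detected in 50.7% of strong IR, 65.6% of weak IR, 46.1% of Mix1 and 72.8% of R cells, against 70.9% of NC cells. A positive cell held 1.58 CCNB1 UMIs on average in strong IR, 2.09 in weak IR, 1.93 in Mix1 and 2.50 in R, against 2.14 in NC. Both terms were therefore lower in strong IR than in NC. At counts this low both terms move with the mean count. They cannot tell fewer cells with the RNA from less RNA in each cell. CDK1 was detected in 31.7% of strong IR and 35.6% of Mix1 cells, against 60.8% of NC cells. Unthinned, these shares were 47.3% in strong IR and 41.0% in Mix1, against 66.8% in NC. CCND1 was detected in 92.9% of strong IR cells with 4.01 UMIs each, against 82.1% of NC cells with 2.39 each (unthinned, 97.2% of strong IR and 89.3% of NC cells). As most NC cells were already positive, its share had little room to be higher. The highest CCND1 count in a thinned cell was 21 in strong IR, 17 in weak IR, 43 in Mix1 and 8 in R, against 11 in NC.

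Summing CCNA2, CCNB1 and CCNB2 in each thinned cell gave 3 ranges of counts, which are cuts of 1 scale and not cell types. At least 5 UMIs were found in 2.47% of strong IR cells (1.84 to 3.23), 9.76% of weak IR, 4.97% of Mix1 and 15.5% of R cells (12.5 to 18.8), against 12.2% of NC cells (9.83 to 14.8). None was found in 57.8% of strong IR cells (55.6 to 59.9), 26.4% of weak IR, 47.8% of Mix1 and 23.3% of R cells, against 22.9% of NC cells (19.8 to 26.2). At 5000 UMIs a cell with none may still hold the RNA. CDK1, which took no part in the cut, stood at 57.0 CPM (51.1 to 63.3) in the strong IR cells with none, 158 CPM in weak IR, 70.3 CPM in Mix1 and 152 CPM in R, against 195 CPM (166 to 228) in NC. In the cells with at least 5, CDK1 stood at 290.2 CPM (228 to 364) in strong IR, 295 CPM in weak IR, 205 CPM in Mix1 and 325 CPM in R, against 294 CPM (245 to 350.4) in NC. In the cells with 1 to 4, CDK1 stood at 162 CPM (150 to 175) in strong IR, 225 CPM in weak IR, 164 CPM in Mix1 and 245 CPM in R, against 233 CPM (214 to 254) in NC. The CDK1 intervals of strong IR and NC thus overlapped only in the range of at least 5, which held 51 strong IR and 85 NC cells. In the other ranges strong IR lay below NC.

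CCNE2 ran the other way along these ranges in NC. It stood at 38.8 CPM (26.3 to 55.0) in NC cells without G2/M cyclin UMIs and 9.41 CPM (2.56 to 24.1) in those with at least 5. In strong IR it stood at 7.20 CPM (5.21 to 9.70) in cells without and 16.8 CPM (13.1 to 21.3) in cells with 1 to 4 and 7.84 CPM (0.95 to 28.3) in cells with at least 5. In Mix1 the corresponding levels were 18.8, 30.7 and 13.6 CPM. CCND1 in the cells without G2/M cyclin UMIs stood at 844 CPM (820.4 to 867) in strong IR, 473 CPM in weak IR, 649.6 CPM in Mix1 and 379 CPM in R, against 371 CPM (330.2 to 416) in NC. In the cells with 1 to 4 it stood at 615 CPM (591 to 639) in strong IR and 393 CPM (368 to 420) in NC. In the cells with at least 5 it stood at 506 CPM (422 to 601) in strong IR (51 cells) and 426 CPM (366 to 493) in NC (85 cells). Only in this last range did the CCND1 intervals of strong IR and NC overlap. CDKN2A in cells without G2/M cyclin UMIs stood at 26.1 CPM in strong IR and 60.8 CPM in Mix1, against 55.0 CPM in NC.

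**Figure D3:**
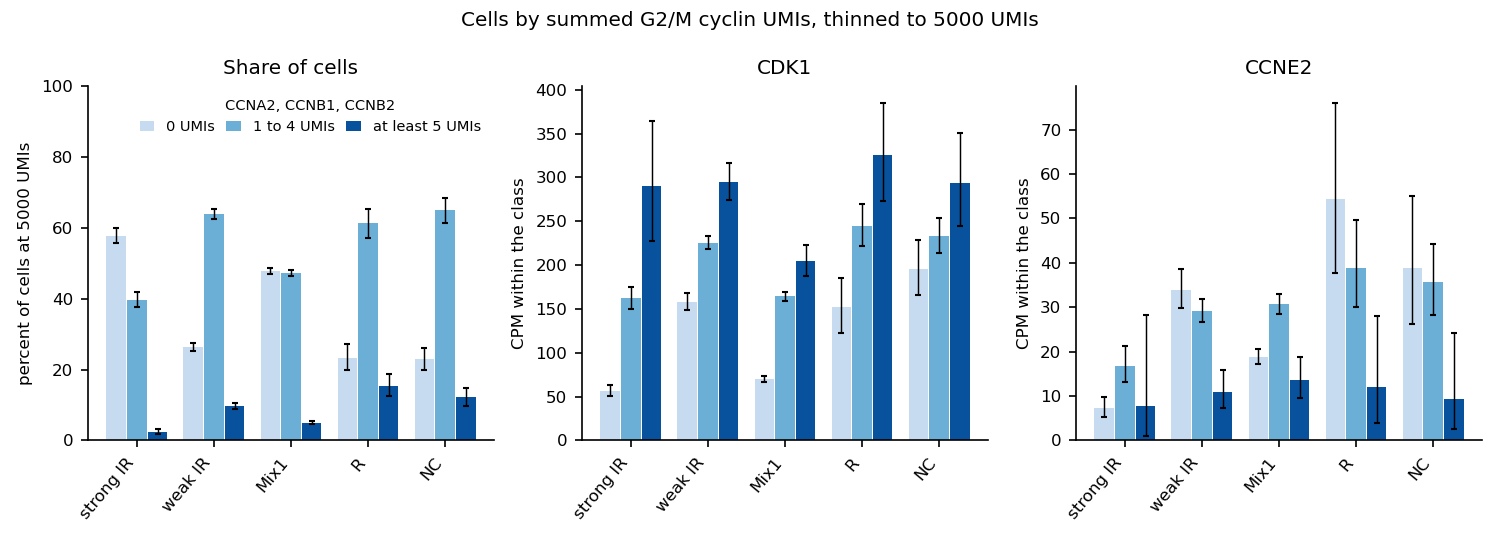
Cells thinned to 5000 UMIs and cut by their summed CCNA2, CCNB1 and CCNB2 UMIs (0, 1 to 4, at least 5), with the percent of cells in each range (left) and the CPM of CDK1 (middle) and CCNE2 (right) within it; populations are 1 sample each and error bars are exact 95% counting intervals. Strong IR cells without UMIs make up 57.8% and carry CDK1 at 57.0 CPM, whereas NC cells without UMIs make up 22.9% and carry it at 195 CPM.

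Strong and weak IR are cut from a continuous tag8 count, so levels were also read along it. In bins from 500, 1000 and 2000 tag8 counts, which make up weak IR, CCNB1 stood at 263, 254 and 242 CPM, and in bins from 3160, 5000 and 10000 counts, which make up strong IR, at 174, 107 and 60.1 CPM (55.3 to 65.2). CDK1 stood at 185, 237 and 239 CPM in the weak bins and 167, 107 and 60.9 CPM in the strong bins. CCND1 stood at 468, 451, 500.3, 669, 855 and 720.2 CPM over the 6 bins, so its highest level lay in the bin before the last. The ratio of G1 to G2/M cyclin UMIs stood at 1.45, 1.41, 1.56, 2.82, 5.71 and 7.93 (7.41 to 8.49). It was thus nearly level over the weak bins and higher in each strong bin than in the one before, with no step confined to the limit between the groups. The cells just below and just above that limit, from 2000 to 3159 and from 3160 to 4999 counts, held CCNE2 at 22.2 and 17.0 CPM, CCNA2 at 64.5 and 45.8 CPM, CCNB2 at 62.0 and 43.3 CPM and CDKN2A at 45.0 and 39.3 CPM. Median UMIs per cell moved with the tag, from 5720 in the lowest bin to 13146 and 11080.5 in the last 2, and their part in these levels was not tested.

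**Figure D4:**
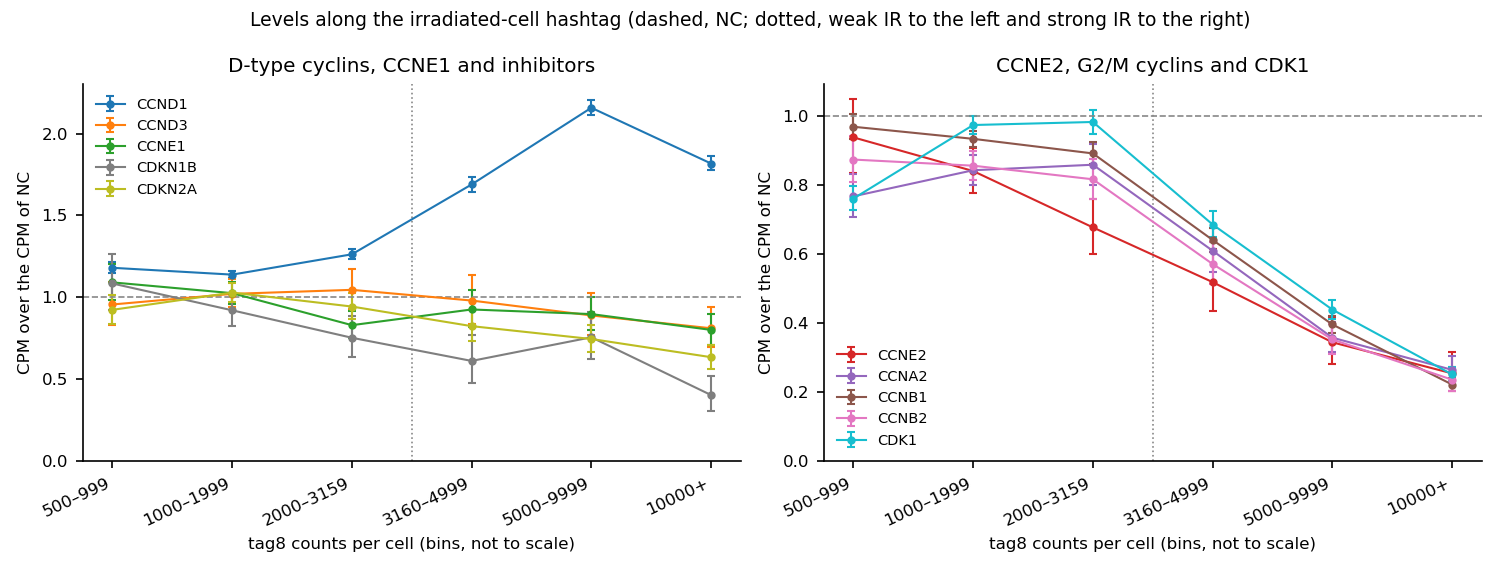
Level of each gene over its NC level (y axis, ratio of CPM, from 0) in 6 bins of tag8 counts per cell (x axis, bins not to scale), for the D-type cyclins, CCNE1 and the inhibitors (left) and for CCNE2, the G2/M cyclins and CDK1 (right); error bars are exact 95% counting intervals of the bin, the dashed line marks NC and the dotted line parts weak IR from strong IR. The points on the right lie at or below the NC level in the weak bins and lowest in the last bin, where CCNB1 stands at 60.1 CPM, and CCND1 is highest in the bin from 5000 counts (855 CPM).

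UMIs per cell go with cell size, capture and doublets, which cannot be told apart, so each population was cut into 4 equal parts by UMIs per cell. In strong IR the ratio of G1 to G2/M cyclin UMIs stood at 6.39, 4.68, 5.34 and 4.39 from the shallowest to the deepest part, with median UMIs of 6440, 10284.5, 13571 and 18077. In NC it stood at 1.27, 1.09, 1.45 and 1.003, with medians of 4916, 6501, 7863.5 and 10290. At like depth, with medians of 6440 and 6501 UMIs, strong IR (6.39, 5.74 to 7.13) and NC (1.09, 0.968 to 1.22) remained far apart. Mix1 did not follow depth in 1 direction, with 7.10, 2.55, 2.27 and 3.71, and its shallowest part, at a median of 2364 UMIs, held CCNB1 at 78.7 CPM and CCND1 at 789 CPM. Whether each barcode of that part holds a separate cell was not tested. CDK1 was higher with depth in NC, at 163, 191, 219.9 and 325 CPM over the parts, and in strong IR, at 71.9, 101, 106 and 124 CPM.

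**Figure D5:**
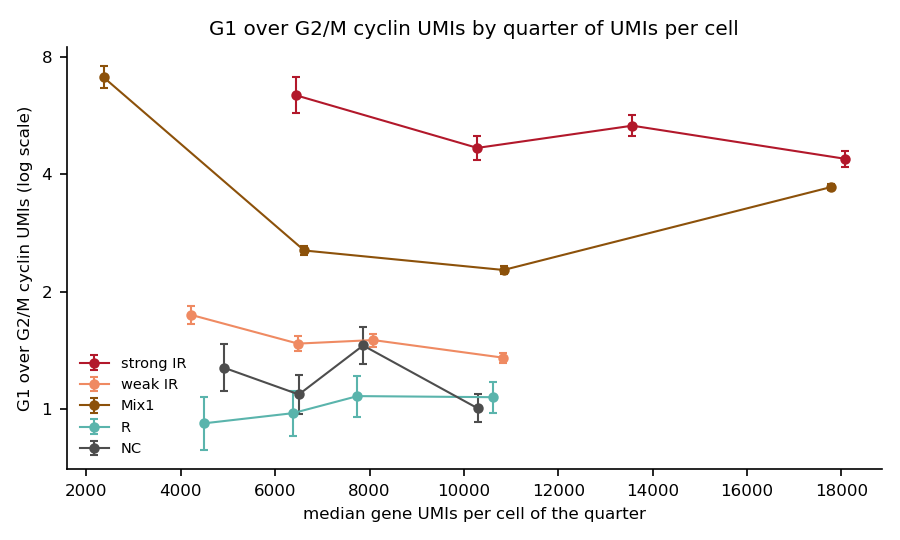
UMIs of G1 cyclins over UMIs of G2/M cyclins (y axis, log scale) in 4 equal parts of the cells by UMIs per cell, placed at the median UMIs of the part (x axis); each line is a population of 1 sample and error bars are 95% intervals from the counts. Strong IR lies between 4.39 and 6.39, NC between 1.003 and 1.45, and Mix1 is highest in its shallowest part (7.10).

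Other cell cycle regulators were described from a list of 52 genes, of which 37 reached 10 CPM in each comparison. This list too was made with earlier results of these data known. In strong IR over NC, 4 were called higher and 21 lower, against the 9.92% and 15.4% of all genes given above, with a median log2 ratio of -0.69. CDKN1A, the p53 target that inhibits cyclin-dependent kinases, stood at 918 CPM in strong IR and 180.2 CPM in NC, 5.09-fold higher (4.79 to 5.41). TFDP2, a partner of E2F factors (61.1 against 36.0 CPM), CCNG1, a p53-induced cyclin (48.4 against 28.7 CPM), and CDK6, a kinase of the D-type cyclins (98.3 against 65.2 CPM), were the others called higher in strong IR. CDK4, the other such kinase, stood at 132 CPM in strong IR and 192 CPM in NC, a ratio of 0.685 (0.641 to 0.732) that did not reach the limit, so the kinases of CCND1 lay on opposite sides of NC. CDK2, the kinase of the E-type cyclins, was lower in strong IR, at 15.9 against 33.3 CPM. The lowest ratios belonged to E2F8, a repressor of E2F targets (0.345), FBXO5, an inhibitor of the anaphase-promoting complex (0.375), MKI67, a marker of cycling cells (0.377, at 126 against 334 CPM), and WEE1, a kinase that restrains CDK1 (0.387). CDKN1C, the relative of CDKN1B, stayed under 10 CPM, at 8.37 CPM in strong IR and 4.75 CPM in NC. In Mix1, 2 of the 37 were called higher and 10 lower, where 6.97% and 10.0% of all genes were. In weak IR (0.709% of all genes higher and 0.481% lower) and R (1.42% higher and 1.77% lower) none was, with CDKN1A at 265 CPM in weak IR and 255 CPM in R, against 180.2 CPM in NC.

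Likeness to CCNB1 and CCND1 was read over 8 groups of Mix2 (NC, R and the 6 tag8 bins) among 3075 genes that reached 50 CPM in at least 1 group. The groups share a library and differ in depth, so Pearson's r on log2 CPM is a description only. The genes outside the 10 that followed CCNB1 most closely were GNAI3, EXOSC3, BUB1, TCP1 and AURKA (r = 0.998 to 0.996), of which BUB1 and AURKA are mitotic kinases, where the median gene had r = 0.64. Within the 10 genes, CCNB2 (0.992), CCNA2 (0.979), CDK1 (0.976), CCNE2 (0.975) and CDKN2A (0.971) followed CCNB1, and CCNE1 (0.255) and CCND3 (0.403) did so less. CCND1 was followed by GDF15, LGALS3BP, TP53I3, TRAF4 and SLC2A1 (r = 0.997 to 0.988), where the median gene had r = -0.47, and GDF15 and TP53I3 are known p53 targets. CCND1 and CCNB1 ran against each other (r = -0.859).

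Free RNA sets a floor under these levels in Mix2. For Mix1 it was not measured, and none was subtracted there. In 50037 barcodes outside the cell list with 200 to 500 gene UMIs (median 391, median tag8 116), CCND1 stood at 671 CPM and was found in 22.5% of droplets, and CCNB1 stood at 105 CPM and was found in 3.95%. This range was added after seeing the data. In 22051 droplets of the planned range, 10 to 200 gene UMIs, CCND1 stood at 349.6 CPM (303 to 401) and CCNB1 at 90.4 CPM. If each cell took up as much free RNA as a droplet with 200 to 500 gene UMIs holds, 3.14% of the UMIs of strong IR, 5.18% of weak IR and 5.15% of R, against 5.11% of NC, would be free RNA, and it would give 8.64% of the CCND1 UMIs of NC. Subtracting it left each of the 7 calls of strong IR over NC in place, with a log2 ratio of 0.99 for CCND1 and -1.35 for CCNB1.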

How the data were processed

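Droplet libraries of HCT116 cells (Mix1 and Mix2) were read from the matrices the authors deposited. Per the file headers, Cell Ranger 3.1.0 (Mix1) and 3.0.1 (Mix2) made them. They hold whole UMI counts per gene and barcode that the authors deposited without normalization. The submitters' processing notes also name GRCh38, mm10 and Seurat 2.3. The unfiltered counts of Mix2 served only for droplets without cells. It is 3′ data, so a UMI count does not depend on transcript length.

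Populations followed fixed tag limits, given in the report, and cells with at least 200 genes and under 10% mitochondrial UMIs were kept. Sums of UMIs over the cells of a population were expressed per 1000000 (CPM). Totals ran from 4731705 to 150680612 UMIs. Ratios carry exact conditional binomial intervals, levels exact Poisson intervals and shares exact Clopper-Pearson intervals, all at 95%; those of G1 to G2/M ratios come from counts on the log scale. Genes at 10 CPM in either population were called at 1.5-fold. No test was made with 1 sample per population, and the populations compared with NC share its cells. Named genes were the 10 members, up to 4 listed regulators in each direction with the largest ratio in strong IR, 6 fixed regulators, and the 5 genes most like CCNB1 and CCND1. The members and lists were chosen with earlier results of these data known. Ratios were tested on simulated counts, and thinning was checked against expected counts in the NC cells. Droplets without cells were planned at 10 to 200 gene UMIs, but their peak lay at 200 to 500, a range added after seeing the data. Python 3.11.15, numpy 2.4.6, scipy 1.17.1, pandas 2.3.3, R 4.3.3 and edgeR 4.0.16 (TMM factors only) were used, with GENCODE 44 positions and RefSeq promoters.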

Additional observations from a re-analysis of the deposited data

Results flagged for a closer look

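Some genes lay on opposite sides of NC in different populations, with intervals that excluded equality on both sides; these differences were not tested. CCNB1 stood at 0.404 of the NC level in strong IR, 0.931 in weak IR and 0.527 in Mix1, but at 1.20 times it in R. With the own tag at 95% or more of the tags, where 44 R and 88 NC cells were left, CCNB1 in R lay below NC too (log2 ratio -0.42, -0.74 to -0.12). CDKN2A stood at 0.728 of the NC level in strong IR and 1.53 times it in Mix1. The log2 ratio of G1 to G2/M cyclins lay 2.07 above NC in strong IR, 0.34 above it in weak IR and 1.43 above it in Mix1, whereas R differed from NC by -0.17, which became 0.41 (0.09 to 0.73) with the own tag at 95% or more. Droplets without cells, which enter none of the comparisons between populations, held CCND1 at 1.69 times the NC level (1.62 to 1.77) in the range of 200 to 500 gene UMIs, which was added after seeing the data. In the planned range of 10 to 200 gene UMIs the ratio was 0.882 (0.760 to 1.02).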

How the results depend on the processing

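In all, 16 alternatives were run, some of which touched only the counts of calls or the ratio of G1 to G2/M cyclins. Under the rest, 570 ratios of the 10 genes were recomputed. Of these, 469 stayed inside the interval of the reported value, 16 of them with the other sign. Another 86 moved outside it in the same direction, and 15 moved outside it and changed sign. Of these 15 only CCNE2 in Mix1 over NC had been called (log2 0.17 with the own tag at 95% or more), and 9 came from that tag limit and 6 from the stricter cell filter. CCNB1 in R over NC was -0.42 with the own tag at 95%, the only one of the 15 whose interval then excluded 0. Of 21 calls, 15 were kept under each alternative at 1.5-fold. The log2 ratio of G1 to G2/M cyclins in strong IR over NC moved to 2.71 in cells with at least 2000 genes and under 5% mitochondrial UMIs, to 2.31 with the own tag at 95%, to 1.97 by highest tag only, to 2.50 with strong IR from 5000 tag8 counts and to 0.80 without CCND1. In the same order of settings, where they apply, that of weak IR over NC moved to 0.58 and 0.50, was 0.053 without CCND1, and it was 0.45 with no filter on cells and 0.49 with equal weight per cell. That of Mix1 over NC moved to 1.23 with the stricter cell filter, to 1.60 with the own tag at 95% and to 0.49 without CCND1. By highest tag only it stayed inside its interval, at 1.41. In thinned cells it was 1.21, with equal weight 1.55, and without the 5% of cells with most UMIs 1.31. In the order of settings given for strong IR over NC, that of strong over weak IR moved to 2.12, 1.82, 1.64, 2.17 and 0.75. It was 1.68 with no filter, 1.87 in thinned cells, 1.60 with equal weight and 1.81 with free RNA of droplets with 200 to 500 UMIs subtracted. That of R over NC reversed to 0.41 with the own tag at 95%, where 44 R and 88 NC cells were left, and was -0.42 without CCND1. Genes called higher in Mix1 over NC numbered 1 with no filter, the stricter filter, thinning or equal weight, and 0 with the own tag at 95%, by highest tag or at 2-fold. At 2-fold, 0 were called higher in strong IR over NC and in strong over weak IR, and 2 lower in Mix1 over NC, and with equal weight 0 were higher in strong over weak IR. The causes were not tested. Leaving out CCND1 and the wider droplet range were added after seeing the data. No paired analysis was possible because each population is 1 sample. Depth limits CDKN1B, CCND3, CCNE1 and CCNE2 most, with 78 to 149 UMIs each in R.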
